A study of Mus musculus with 63 samples.

Results

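The genes described here are 10 members of the postsynaptic scaffold families that surround Shank3: Shank1, Shank2 and Shank3, Homer1, Homer2 and Homer3, Dlg4 (the gene of PSD-95), and Dlgap1, Dlgap3 and Dlgap4. They were taken by gene symbol from the 56980 genes of the count tables, and all 10 were found. The set was chosen by the measured levels of Shank3 in microglia, where they differed between burn and sham, so that contrast is described below without a test.

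In an excitatory synapse these proteins form stacked layers under the postsynaptic membrane. PSD-95 binds glutamate receptors and adhesion molecules, the Dlgap (SAPAP or GKAP) proteins link PSD-95 to the Shank proteins, and Shank proteins bind Homer, which in turn holds metabotropic glutamate receptors and inositol trisphosphate receptors. The families are known from neurons, and several members are also transcribed outside them.

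Female C57BL/6J mice, 12 weeks old on arrival, all received AAV injections into the motor cortex of both hemispheres that put eGFP under a CaMKII promoter and mRuby2 under an mDlx enhancer. Burn mice then received a full-thickness burn over about 7 to 8% of the body surface, and sham mice had the same anaesthesia, injections and shaving without the burn. At 5 weeks after the injury, 4 populations were sorted from each brain: cells with eGFP alone (CaMKII positive, labelled excitatory neurons) and cells with eGFP and mRuby2 (double-positive, labelled inhibitory neurons) from the motor cortex, and ACSA2 positive cells (astrocytes) and CD11b positive cells (microglia) from cortex caudal to it. The 58 libraries used came from 17 mice: 4 burn and 6 sham CaMKII positive, 9 burn and 7 sham double-positive, 9 burn and 8 sham astrocyte, and 8 burn and 7 sham microglia libraries. Each library is the sorted cells of 1 mouse, and the virus labels neurons by promoter and enhancer activity, so neither neuronal label is a direct measure of cell type.

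Levels are CPM, the count of a gene scaled by the total of all gene counts in its library, and these total counts ran from 13346143 to 134703744. Where a gene had 0 counts, the limit on its level is taken as 3 counts, which is 0.0223 CPM in the deepest and 0.225 CPM in the shallowest library and covers counting error only. The labels were compared with marker genes first. Astrocyte and microglia libraries carried their own markers, with sums of 38896 ± 4295 CPM over 8 astrocyte markers (SD, n = 17) and 26315 ± 3493 CPM over 8 microglia markers (SD, n = 15). The CaMKII positive libraries held 18712 ± 3273 CPM of the astrocyte markers and 5363 ± 2036 CPM of 6 endothelial markers, but 117 ± 63.2 CPM of 10 neuron markers (SD, n = 10). The excitatory marker Slc17a7 was at 12.4 ± 11.2 CPM there, against 11229 ± 2232 CPM of the astrocyte glutamate transporter Slc1a2. The double-positive libraries held 22069 ± 4091 CPM of the microglia markers and 25.5 ± 10.8 CPM of the neuron markers, with Gad1, which marks inhibitory neurons, at 0.724 ± 0.545 CPM (SD, n = 16). The markers of both neuronal populations thus went against their labels, and these populations are called below by their sort. In such bulk libraries, fewer cells of a type and less RNA per cell cannot be told apart.

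The 10 genes fell into genes that differed strongly between populations and genes that did not (plot of CPM by library). In the comparison of astrocyte with microglia libraries, 7 of the 10 were called, all higher in astrocytes: Shank1, Shank2, Shank3, Homer2, Dlg4, Dlgap1 and Dlgap3. A gene was called where edgeR, fitted over all 33150 genes tested, gave an adjusted p no higher than 0.05 together with a log2 fold change (log2FC) of 1 or more in either direction. The background in this comparison was high, with 51.2% of all genes called and 30.4% called higher in astrocytes, and the median log2FC of the 10 genes was 3.06 against 0.24 over all genes. Homer1, Homer3 and Dlgap4 were not called in any of the 6 pairs of populations.

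Markers of several other cell types moved the same way in this pair. Called higher in astrocyte libraries were 6 of 6 mural markers (median log2FC 5.76), 5 of 5 oligodendrocyte precursor markers (4.60), 5 of 6 endothelial markers (4.12) and 4 of 6 oligodendrocyte markers (3.16), of which 1 was lower. Of the 10 neuron markers 9 were called higher in astrocyte libraries, with a median log2FC of 2.33, and their sum was 84.0 ± 100 CPM there (SD, n = 17, 14.7 to 384) against 13.7 ± 4.32 CPM in microglia (SD, n = 15, 7.45 to 22.3). Over the 17 astrocyte libraries, on the log2(CPM + 1) scale, that sum had a Pearson's r of 0.773 with Shank1 (adjusted permutation p = 0.0180) and a Spearman's rho of 0.642 (adjusted permutation p = 0.0852), adjusted over the 80 relations computed. For Dlgap3 r was 0.747 (adjusted permutation p = 0.0230) and rho 0.711 (adjusted permutation p = 0.0852), and for Shank3 r was 0.711 (adjusted permutation p = 0.0288) and rho 0.456 (adjusted permutation p = 0.291). Without mice 13 and 24, the farthest from the median sum, r was 0.651 for Shank1, 0.623 for Dlgap3 and 0.398 for Shank3, and in the 10 libraries of batch 3, the last of 3 batches that the study numbers and treats as batches of sequencing, it was 0.729, 0.681 and 0.626. The other 7 genes had an r between 0.258 and 0.663 with adjusted permutation p above the threshold, Dlgap1 at 0.280 among them. In CaMKII positive libraries r with Dlgap3 was 0.843 (adjusted permutation p = 0.0298) and rho 0.794 (adjusted permutation p = 0.0852), and r was 0.791 without mice 2 and 16 and 0.783 in the 8 libraries of batch 3, whereas the other 9 genes had adjusted p above the threshold there. In microglia r was 0.696 for Dlgap1, −0.715 for Dlgap4 and −0.281 for Dlgap3, given without a test because the difference that chose the set enters them. The part of RNA from any of these cell types in the differences between populations was not tested.

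**Figure D1:**
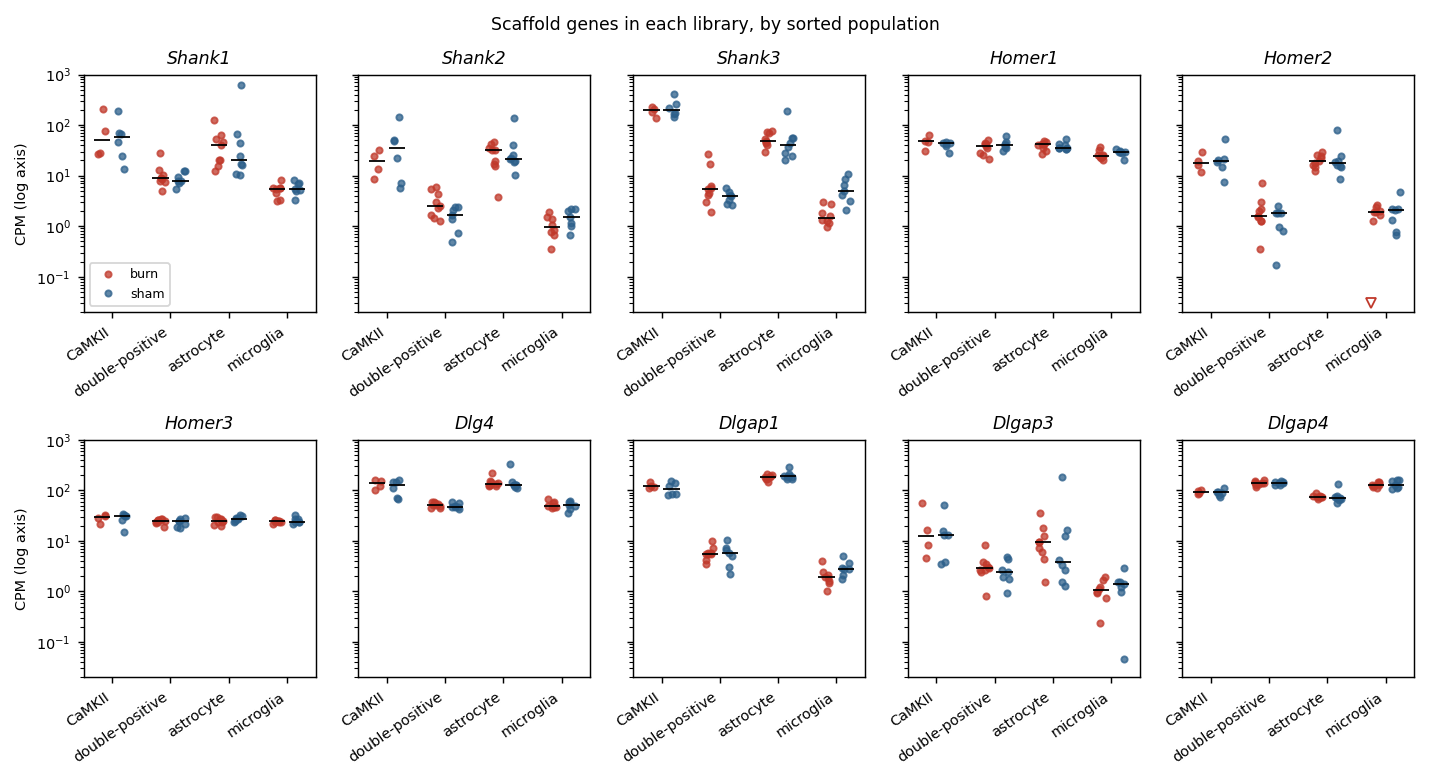
CPM of each scaffold gene in every library on a log axis, by sorted population, with burn libraries in red, sham libraries in blue and a black bar at each group's median; an open triangle marks the 1 library with no count. Shank3 and Dlgap1 lay far apart between populations, whereas Homer1, Homer3 and Dlgap4 stayed within a narrow band, and the astrocyte sham library at 610 CPM of Shank1 stood above all others.

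Among the Shank genes, Shank3, the scaffold whose loss is known from Phelan-McDermid syndrome, was the only member called in all pairs but that of double-positive and microglia libraries. It ran from 136 to 413 CPM with a median of 194 in the CaMKII positive libraries, from 20.2 to 190 CPM with a median of 47.0 in astrocytes, from 1.91 to 26.2 CPM with a median of 4.41 in the double-positive libraries, and from 0.976 to 10.8 CPM with a median of 2.73 in microglia. The CaMKII positive and microglia libraries did not overlap, which held for each of the other genes called in this pair as well. The share of all genes without overlap was not computed. Shank3 was 3.59-fold higher in CaMKII positive than in astrocyte libraries (log2FC 1.84 ± 0.29, adjusted p = 6.95e-07, edgeR) and 62.4-fold higher than in microglia (5.96 ± 0.33, adjusted p = 8.44e-23). Against astrocytes, 6 of 6 endothelial markers were also called higher (median log2FC 2.93, with sums of 5363 ± 2036 CPM, n = 10, and 658 ± 307 CPM, n = 17), as were 6 of 6 oligodendrocyte (3.28), 8 of 8 microglia (4.70) and 6 of 6 border macrophage and monocyte markers (5.21), and their part in the difference of Shank3 was not tested. The difference between double-positive and microglia libraries, 0.77 ± 0.28, was not called (adjusted p = 0.0746), and the interval of 2 standard errors around it ran from 0.20 to 1.34. Within batch 3 alone this log2FC was 0.15. In the comparison of CaMKII positive with astrocyte libraries Shank3 was the only one of the 10 genes called, where 16.2% of all genes were called and 12.4% were called higher in CaMKII positive libraries.

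Shank1 and Shank2 were not called between CaMKII positive and astrocyte libraries, and their levels there overlapped widely. Shank1 had medians of 57.2 CPM (13.5 to 211) in CaMKII positive, 24.1 CPM (10.2 to 610) in astrocyte, 8.69 CPM (4.92 to 28.1) in double-positive and 5.50 CPM (3.21 to 8.12) in microglia libraries. Its log2FC of astrocytes against microglia was 3.01 ± 0.42 (adjusted p = 8.01e-09), or 1.98 ± 0.31 in batch 3 alone (adjusted p = 7.11e-07), and that of CaMKII positive against astrocyte libraries was 0.77 ± 0.44 (adjusted p = 0.204). The last difference depended on the libraries fitted and was called at 1.18 ± 0.33 without the 3 libraries of mouse 13 (adjusted p = 0.00396), at 1.33 ± 0.45 in a fit of these populations alone (adjusted p = 0.0275) and at 1.56 ± 0.31 in batch 3 alone (adjusted p = 0.000160). Shank2 had medians of 23.6 CPM (5.59 to 145), 22.3 CPM (3.75 to 141), 2.23 CPM (0.494 to 5.86) and 1.15 CPM (0.353 to 2.23) in the same order of populations. Astrocytes exceeded microglia in Shank2 by 4.60 ± 0.40 on the log2 scale (adjusted p = 2.52e-15), and the CaMKII positive and astrocyte libraries differed by −0.13 ± 0.39 (adjusted p = 0.941), with an interval of 2 standard errors from −0.90 to 0.64.

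The 3 Homer genes, whose proteins link Shank to group I metabotropic glutamate receptors, did not share a pattern. Homer2 had medians of 19.0 CPM (7.58 to 53.3) in CaMKII positive and 18.9 CPM (8.66 to 79.2) in astrocyte libraries, against 1.70 CPM (0.168 to 7.15) in double-positive libraries and 1.92 CPM (0 to 4.68) in microglia. No astrocyte library overlapped with microglia, which held for the other genes called in this pair except Dlgap3. The log2FC of Homer2 was 3.56 ± 0.35 (adjusted p = 1.57e-13). Homer1, which is known for a short activity-induced isoform that these gene counts cannot separate, had medians of 43.7, 39.4, 39.9 and 28.5 CPM in CaMKII positive, double-positive, astrocyte and microglia libraries. It was lower in microglia than in each of the others by less than the fold needed for a call, with log2FC of 0.59 ± 0.11 for astrocytes (adjusted p = 2.83e-06), 0.56 ± 0.12 for CaMKII positive (adjusted p = 7.95e-05) and 0.51 ± 0.11 for double-positive libraries (adjusted p = 0.000729). Homer3 lay in the narrowest band, with medians of 30.7 CPM (15.0 to 33.3), 24.6 CPM (18.0 to 28.5), 27.1 CPM (19.8 to 32.5) and 24.2 CPM (21.5 to 32.1) in the same order. Its largest difference was 0.22 ± 0.08 between astrocyte and double-positive libraries (adjusted p = 0.0147). In the annotation used for lengths, 25.4% of the exon bases of Homer3 overlap Ddx49 on the other strand, and whether the counting used strand is not given in the sources used here, so the level of Homer3 may include reads of that gene.

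Dlg4, the gene of PSD-95, was the least different of the 7 called genes. It had medians of 134 CPM (68.7 to 162) in CaMKII positive, 51.0 CPM (42.5 to 60.1) in double-positive, 128 CPM (113 to 337) in astrocyte and 48.8 CPM (36.1 to 67.9) in microglia libraries. Double-positive libraries and microglia overlapped and differed by −0.02 ± 0.11 (adjusted p = 1.00), whereas astrocytes exceeded microglia by 1.56 ± 0.12 (adjusted p = 5.65e-18). CaMKII positive libraries exceeded double-positive ones by 1.19 ± 0.13 (adjusted p = 6.29e-12), and this value was 0.98 ± 0.13, under the fold needed, in a fit of these 2 populations alone. The log2FC of CaMKII positive against astrocyte libraries was −0.40 ± 0.13 (adjusted p = 0.0149) and was not called.

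The Dlgap genes, which bridge PSD-95 and Shank, showed the widest range. Dlgap1 had medians of 121 CPM (80.3 to 155) in CaMKII positive, 185 CPM (144 to 290) in astrocyte, 5.64 CPM (2.26 to 10.4) in double-positive and 2.07 CPM (1.04 to 5.09) in microglia libraries. Astrocytes exceeded microglia 78.7-fold (log2FC 6.30 ± 0.19, adjusted p = 1.12e-35), which was the largest of the 10 differences in that pair. It was also the only gene of the 10 called between double-positive and microglia libraries, at 1.21 ± 0.16 (adjusted p = 8.52e-08), where 6.82% of all genes were called and 5.57% were called higher in double-positive libraries. In that pair 6 of 8 astrocyte markers (median log2FC 3.09), 4 of 5 oligodendrocyte precursor markers (1.80) and 3 of 6 mural markers (1.47) were also called higher and 6 of 6 border macrophage and monocyte markers lower (−1.74), and their part in the difference of Dlgap1 was not tested. Between CaMKII positive and astrocyte libraries Dlgap1 ran the other way from Shank3, at −0.82 ± 0.17 (adjusted p = 9.33e-05), which is under the fold needed for a call. There 8 of 8 astrocyte markers were called lower in CaMKII positive libraries (median log2FC −1.26), and their part in this difference was not tested.

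Dlgap3 varied widely among astrocyte libraries. Its medians were 13.0 CPM (3.53 to 55.4) in CaMKII positive, 7.29 CPM (1.28 to 188) in astrocyte, 2.68 CPM (0.809 to 8.32) in double-positive and 1.24 CPM (0.0454 to 2.97) in microglia libraries. Astrocytes exceeded microglia by 3.10 ± 0.52 (adjusted p = 6.70e-07), and double-positive libraries by 1.93 ± 0.49 (adjusted p = 0.000507). Within batch 3 alone the first difference was 1.90 ± 0.47 (adjusted p = 0.000655) and the second 0.65 ± 0.45 (adjusted p = 0.223). Between CaMKII positive and astrocyte libraries Dlgap3 differed by 0.87 ± 0.55 (adjusted p = 0.260), and it was called at 1.37 ± 0.42 without mouse 13 (adjusted p = 0.00998), at 1.53 ± 0.52 in a fit of these populations alone (adjusted p = 0.0247) and at 1.83 ± 0.48 in batch 3 alone (adjusted p = 0.00350). Between double-positive libraries and microglia it differed by 1.17 ± 0.47 (adjusted p = 0.113), and it was called at 1.24 ± 0.41 without mouse 13 (adjusted p = 0.0470) and at 1.29 ± 0.34 in a fit of these populations alone (adjusted p = 0.00707), but not in batch 3 alone (1.24 ± 0.46, adjusted p = 0.122). Whether Dlgap3 was called in these 2 pairs thus depended on the libraries fitted.

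Dlgap4 was the only one of the 10 genes with a lower fitted level in astrocytes than in microglia. It was highest in the double-positive libraries at 140 ± 11.6 CPM (SD, n = 16) and in microglia at 132 ± 18.8 CPM (SD, n = 15), and lower in CaMKII positive libraries at 91.7 ± 9.90 CPM (SD, n = 10) and in astrocytes at 76.5 ± 16.8 CPM (SD, n = 17). The log2FC of astrocytes against microglia was −0.73 ± 0.07 (adjusted p = 1.08e-13) and that of CaMKII positive against double-positive libraries −0.70 ± 0.08 (adjusted p = 1.49e-10), both under the fold needed for a call. Within batch 3 alone the first of these was −1.03 ± 0.07 and was called (adjusted p = 3.59e-16).

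**Figure D2:**
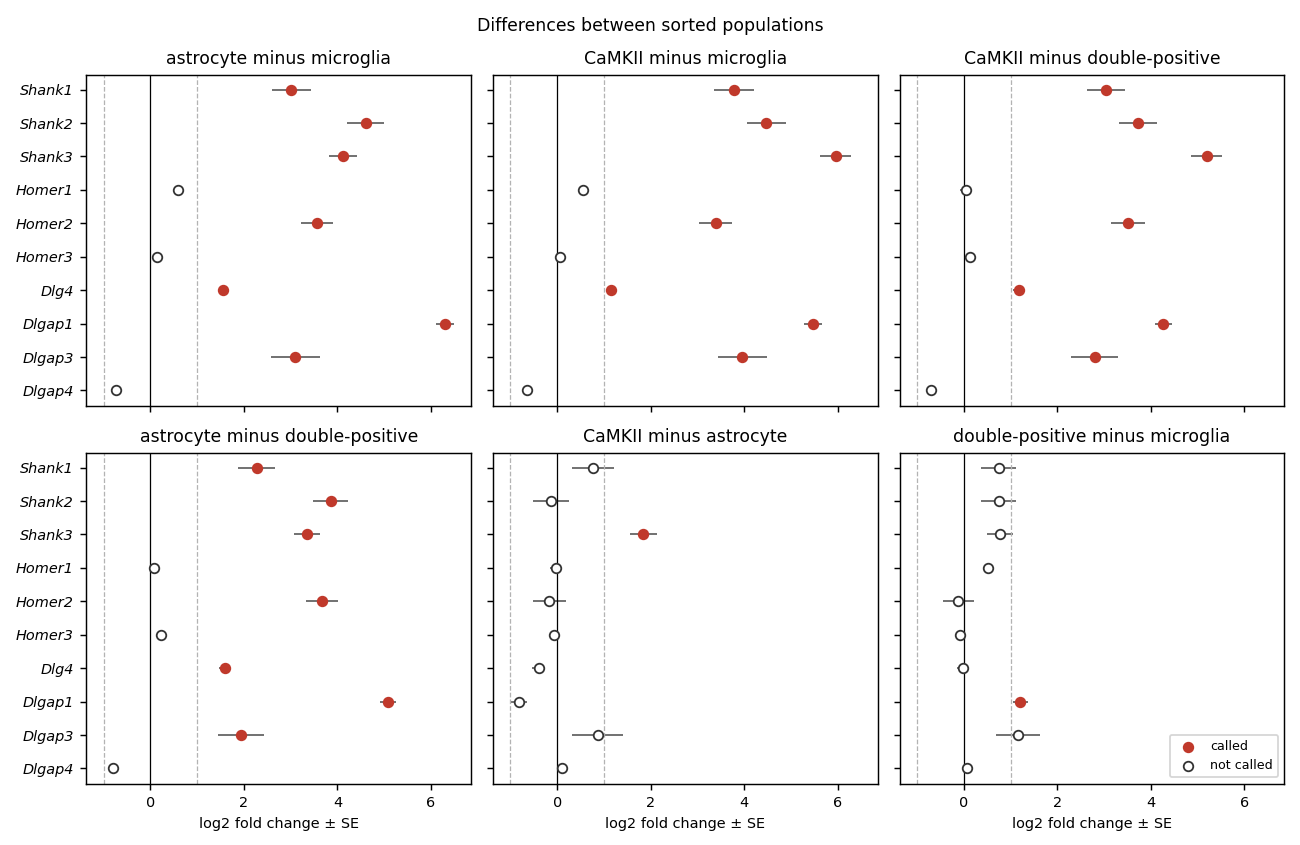
Fitted log2 fold change with its standard error for the 10 genes in each of the 6 pairs of populations; filled red points passed the adjusted p and fold thresholds, open points did not, and dashed lines mark a log2 fold change of 1 in either direction. The same 7 genes were called in the 4 pairs that set CaMKII positive or astrocyte libraries against double-positive or microglia libraries, and only Shank3 and only Dlgap1 in the other two.

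The 7 genes called in astrocytes against microglia were also those called in CaMKII positive against double-positive libraries (42.5% of all genes called, 25.3% higher), in CaMKII positive against microglia (42.2%, 26.8% higher) and in astrocytes against double-positive libraries (51.1%, 27.9% higher). These pairs share libraries and are not separate evidence. With no minimum fold, 3 of the 10 genes passed the adjusted p between CaMKII positive and astrocyte libraries, where 30.2% of all genes did, and 2 of the 10 between double-positive and microglia libraries, where 9.7% did.

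The start regions of Shank3 and Dlgap4 are shown because these genes ran in opposite directions between astrocytes and microglia. Each window holds 250 bases before and 50 bases after a RefSeq transcript start on build GRCm38.p6, 5′ to 3′ on the gene's own strand. Capitals mark GGGCGG or its complement CCGCCC, the core of the Sp1 site. The Shank3 window is chr15:89499358-89499657 on the plus strand and the Dlgap4 window is chr2:156720715-156721014 on the plus strand.
Shank3: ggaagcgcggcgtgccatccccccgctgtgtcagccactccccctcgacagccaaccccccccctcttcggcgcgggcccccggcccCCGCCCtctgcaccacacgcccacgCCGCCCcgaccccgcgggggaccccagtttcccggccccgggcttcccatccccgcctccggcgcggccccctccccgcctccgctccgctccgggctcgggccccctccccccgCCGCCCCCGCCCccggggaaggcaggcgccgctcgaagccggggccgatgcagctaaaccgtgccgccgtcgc
Dlgap4: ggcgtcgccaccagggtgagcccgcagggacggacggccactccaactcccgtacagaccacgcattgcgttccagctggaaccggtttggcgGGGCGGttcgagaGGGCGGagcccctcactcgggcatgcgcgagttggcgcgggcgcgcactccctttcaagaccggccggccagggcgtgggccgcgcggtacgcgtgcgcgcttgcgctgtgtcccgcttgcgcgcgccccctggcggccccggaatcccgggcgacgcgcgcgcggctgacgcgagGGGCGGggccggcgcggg
The motif occurred 4 times in the Shank3 window and 3 times in the Dlgap4 window on either strand, and 35.66% of all 32851 RefSeq windows of this length held it at least once. The Shank3 window held 40 CpG dinucleotides and the Dlgap4 window 50, against a median of 7 over all windows. Of the 13 windows of the 8 members that have one, 5 held this motif, and none held TGACGTCA, the cyclic AMP response element, or GAGGAAGT, a core bound by the myeloid factor PU.1, which were in 1.79% and 3.20% of all windows. Both windows were thus rich in CpG, in genes whose levels differed in opposite directions between these populations.

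Levels of different genes can be compared per kilobase of exon. On this scale, in CPM per kilobase, Shank3 was the highest of the 10 in CaMKII positive libraries at 23.0 ± 8.77, with Dlgap4 next at 10.8 ± 1.17 (SD, n = 10). Dlg4 at 11.2 ± 4.09, Dlgap1 at 10.6 ± 1.73 and Dlgap4 at 9.05 ± 1.98 led in astrocytes and overlapped with each other (SD, n = 17). In microglia Dlgap4 stood highest at 15.6 ± 2.22 and Homer3 followed at 7.26 ± 0.730, whereas Shank3 was at 0.392 ± 0.321, Dlgap1 at 0.140 ± 0.0600 and Shank2, the lowest, at 0.119 ± 0.0550 (SD, n = 15). By these means, double-positive libraries had the same first 7 genes in the same order as microglia, from Dlgap4 at 16.6 ± 1.38 down to Shank3 at 0.688 ± 0.684 and Dlgap3 at 0.678 ± 0.394 (SD, n = 16). Shank3 and Dlgap3 lay closer there than their spread.

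The genes whose levels ran most like a member over the 58 libraries were found by Pearson's r of log2(CPM + 1) among 17265 genes with a mean of at least 1 CPM. The libraries form 4 populations, so these r values mostly describe the order of the populations. Dlgap1 ran closest to Tmod2 (r = 0.993), Ndrg2 (0.993) and Csrp1 (0.993), and Shank3 to Mcf2l (0.976), Sorbs2 (0.972) and Ttll7 (0.972). Shank1 and Dlgap3 shared Nrsn1 among their closest genes (r = 0.942 and 0.937), followed for Dlgap3 by Rims1 (0.935) and Camk2a (0.930). Dlg4 ran with Snph (0.955), Homer2 with Tmcc2 (0.948) and Shank2 with C230004F18Rik (0.961), and Matk (0.920) was among the 3 genes closest to Dlgap4. The 2 even genes had no close counterpart, with 0.740 for Homer1 and Fbxo30 and 0.631 for Homer3 and Gm11767 as the highest values.

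Partners of the scaffolds were taken from a list of 34 genes, and relatives from a list of 4, Dlg1, Dlg2, Dlg3 and Dlgap2. In astrocytes against microglia, 21 of the 34 partners were called higher and 2 lower, with a median log2FC of 2.27 against 0.24 over all genes, where 51.2% of all genes were called and 30.4% called higher. The largest differences were those of Trpc1, a cation channel that Homer binds, at 7.92 ± 0.52 (adjusted p = 4.29e-20) and of the adhesion molecule Nlgn1 at 7.73 ± 0.42 (adjusted p = 6.34e-24). The 2 lower ones were Sipa1l1, a Rap GTPase-activating protein that binds PSD-95, at −2.31 ± 0.20 (adjusted p = 5.34e-15) and the actin-binding Dbnl, a partner of Shank, at −1.58 ± 0.06 (adjusted p = 1.46e-29). Sipa1l1 and Dbnl thus ran in the direction of Dlgap4. Of the 4 relatives, Dlg2, Dlg3 and Dlgap2 were called higher in astrocytes (3.64 ± 0.38, 1.21 ± 0.11 and 3.38 ± 0.91) and Dlg1 was at 0.62 ± 0.05, under the fold needed.

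In CaMKII positive against astrocyte libraries, 2 of the 34 partners were called higher and 3 lower, which is 5 of 34 beside 16.2% of all genes called, with a median log2FC of 0.04 against −0.05 over all genes, and none of the 4 relatives was called. Dnm3, a dynamin that binds Homer, was higher by 1.58 ± 0.33 (adjusted p = 0.000135) and Baiap2, a Shank-binding regulator of actin, by 1.26 ± 0.17 (adjusted p = 1.89e-08). The glutamate receptor subunits Gria1 and Grin2b were lower, at −1.91 ± 0.35 (adjusted p = 1.18e-05) and −1.14 ± 0.29 (adjusted p = 0.00165). In double-positive libraries against microglia, 9 of the 34 partners were called, all higher, from Grin2b at 1.02 ± 0.27 (adjusted p = 0.00879) and Arhgap44 at 1.10 ± 0.34 (adjusted p = 0.0266) to Nlgn1 at 2.32 ± 0.39 (adjusted p = 1.11e-05) and Trpc1 at 2.57 ± 0.50 (adjusted p = 0.000192), where 5.57% of all genes were called higher. The marker lists given beside Dlgap1 moved with them too, with astrocyte marker sums of 872 ± 289 CPM in double-positive libraries (SD, n = 16) and 246 ± 40.3 CPM in microglia (SD, n = 15), and their part in these differences was not tested. In CaMKII positive against double-positive libraries, 19 were called higher, led by the AMPA receptor subunit Gria2 at 5.52 ± 0.34 (adjusted p = 5.63e-21) and Dnm3 at 5.42 ± 0.39 (adjusted p = 3.70e-18), and Sipa1l1 and Dbnl were again the 2 lower ones, where 42.5% of all genes were called and 25.3% called higher.

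The study asked whether a burn leaves a lasting change in each population. No scaffold gene was called between burn and sham in CaMKII positive, double-positive or astrocyte libraries, and none had an unadjusted p under 0.05 there. The background was 0% called in each of these 3 comparisons by edgeR, while 3.90%, 7.01% and 10.7% of all genes had an unadjusted p under 0.05. DESeq2, run as an alternative, called 3, 2 and 27 genes in them and none of the 10.

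**Figure D3:**
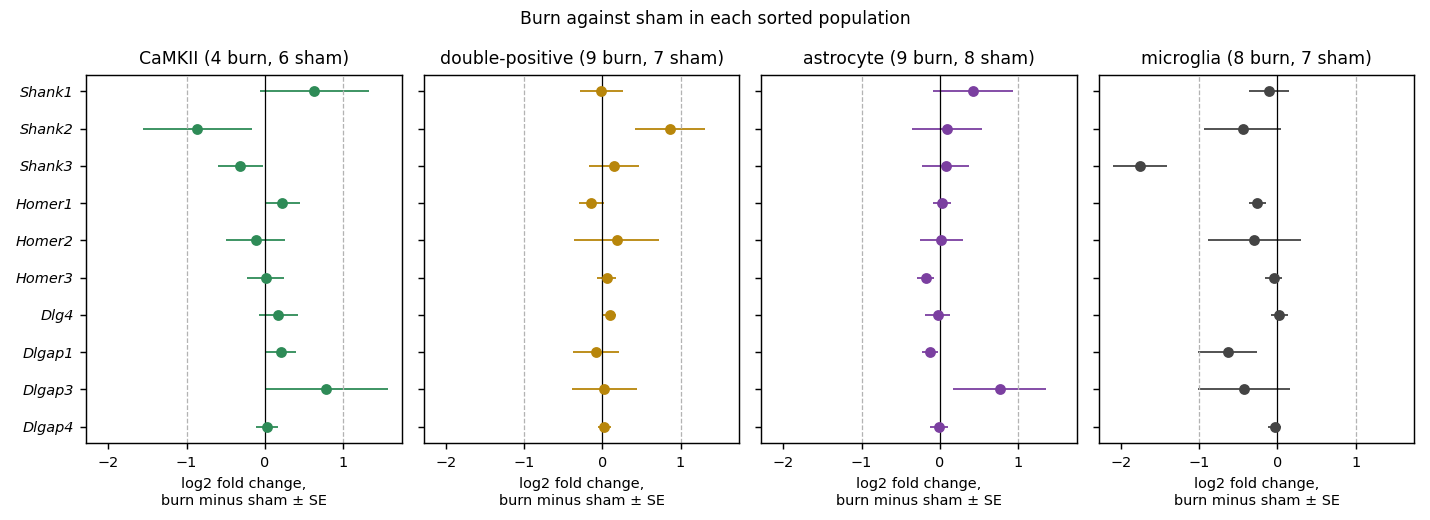
Fitted log2 fold change of burn against sham with its standard error for the 10 genes in each sorted population, with dashed lines at a log2 fold change of 1 in either direction. Values scatter around 0 in CaMKII positive, double-positive and astrocyte libraries, and Shank3 in microglia, the gene on which the set was chosen, lies at −1.76.

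In CaMKII positive libraries Shank3 was at 136, 182, 207 and 227 CPM in the 4 burn mice and between 143 and 413 CPM with a median of 194 in the 6 sham mice. The groups overlapped, and the log2FC was −0.31 ± 0.29 (adjusted p = 1.00, edgeR), or −0.01 without mouse 17, the sham library at 413 CPM. That library also had the highest endothelial marker sum of its population, 10228 CPM against 3613 to 7102 CPM in the others. Its sums of astrocyte, microglia and oligodendrocyte precursor markers were the lowest of this population, and its neuron marker sum was near the highest. The part of any of these cells in its Shank3 level was not tested. Shank2 at −0.86 ± 0.70, Dlgap3 at 0.78 ± 0.78 and Shank1 at 0.63 ± 0.70 had the widest errors, and the remaining 6 genes lay between −0.12 and 0.22. Within batch 3 alone Dlgap3 was at 1.47 ± 0.61, Shank1 at 1.26 ± 0.57 and Shank2 at −0.31 ± 0.68 (adjusted p = 1.00 for each).

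In double-positive libraries Shank2 came nearest to a difference. It ran from 1.25 to 5.86 CPM with a median of 2.56 in 9 burn mice and from 0.494 to 2.40 CPM with a median of 1.69 in 7 sham mice, so 5 of the burn libraries lay above every sham library and the groups overlapped. Its log2FC was 0.87 ± 0.45, with an unadjusted p of 0.0658 and an adjusted p of 0.741 (edgeR). Shank3 ran from 1.91 to 26.2 CPM in burn and from 2.60 to 5.77 CPM in sham mice, and its log2FC was 0.15 ± 0.32 (adjusted p = 1.00). The highest values, 26.2 CPM in mouse 10 and 16.7 CPM in mouse 2, were in burn libraries of batch 1, which holds no kept sham library of this population, and these 2 libraries had endothelial marker sums of 606 and 296 CPM against 47.5 to 130 CPM in the others. Their mural marker sums, 58.1 and 52.5 CPM, were also the highest, and mouse 10 alone held the highest sums of oligodendrocyte (376 CPM, 50.5 to 93.6 in the others), oligodendrocyte precursor (176 CPM, 23.5 to 63.0) and border macrophage and monocyte markers (261 CPM, 62.9 to 138), and the part of these cells in the values was not tested. Without the batch term the log2FC of Shank3 was 1.07, and within batch 3 alone it was −0.05. The other 8 genes lay between −0.14 and 0.19.

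In astrocytes Shank3 ran from 29.6 to 75.9 CPM with a median of 47.7 in 9 burn mice and from 20.2 to 190 CPM with a median of 40.8 in 8 sham mice, a log2FC of 0.07 ± 0.30 (adjusted p = 0.987, edgeR). Its interval of 2 standard errors ran from −0.53 to 0.68. The value of 190 CPM came from the sham mouse 13, the library with the highest level of all 10 genes in its group and with the highest neuron marker sum of its population, 384 CPM. Its oligodendrocyte marker sum was also the highest, 605 CPM against 24.4 to 203 CPM in the others, and the part of these cells in the values was not tested. The endothelial marker sum was 805 ± 290 CPM in burn and 492 ± 243 CPM in sham astrocyte libraries (SD, n = 9 and 8), and its part in these values was not tested here beyond the relation given below. Dlgap3 had the largest value, 0.76 ± 0.60 (adjusted p = 0.738), and Homer3 had the smallest unadjusted p, 0.103, at −0.18 ± 0.11. Within batch 3 alone, which leaves out mouse 13, Dlgap3 was at 1.44 ± 0.53 and Shank1 at 0.93 ± 0.33 (adjusted p = 0.470 for both), against 0.42 for Shank1 over all batches, and Shank3 was at 0.38 ± 0.23 (adjusted p = 0.635).

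In microglia, the contrast that chose the set, 9 of the 10 genes, Shank3 included, had a negative log2FC. The median was −0.27 against 0.0022 over all genes, given here as a description, where edgeR called 0% of all genes. DESeq2 called 80 genes in this contrast, and whether members are among them is not given, since the contrast chose the set. Shank3 ran from 0.976 to 3.02 CPM with a median of 1.47 in 8 burn mice and from 2.04 to 10.8 CPM with a median of 4.86 in 7 sham mice. The groups overlapped: the burn mice 20 and 22, at 3.02 and 2.73 CPM, stood above the sham mouse 13 at 2.04 CPM. These levels rest on 21 to 86 counts a library in burn and 56 to 229 counts in sham mice. The fitted log2FC was −1.76 ± 0.34, and it was −1.85 ± 0.41 in batch 3 alone and between −1.94 and −1.59 when each mouse was left out. These refits reuse the libraries that chose the set, so their closeness is not support for the difference. The other members were closer to 0: Dlgap1 at −0.63 ± 0.37, Shank2 at −0.44 ± 0.49, Dlgap3 at −0.43 ± 0.59, Homer2 at −0.29 ± 0.59, Homer1 at −0.26 ± 0.11, Shank1 at −0.11 ± 0.25, Homer3 at −0.05 ± 0.10, Dlgap4 at −0.03 ± 0.08 and Dlg4 at 0.03 ± 0.11. All of these but Dlgap1 and Homer1 lay within their standard error of no difference. Shank1 turned to 0.15 ± 0.30 in batch 3 alone and to 0.14 ± 0.29 without mouse 8.

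Marker sums of other cell types are given beside these values as a description, since none of their genes was called between burn and sham microglia by edgeR, which called 0 genes in all, or by DESeq2, which called 80. The sum of the 6 endothelial markers was 69.0 ± 16.6 CPM in burn mice (SD, n = 8, 50.6 to 98.2) and 101 ± 40.5 CPM in sham mice (SD, n = 7, 59.1 to 162), 5 of the 6 had a negative log2FC with a median of −0.81, and none was at 0 on average. The sum of the 10 neuron markers was 12.6 ± 2.90 CPM in burn and 15.0 ± 5.48 CPM in sham mice, and 8 of the 10 had a negative log2FC with a median of −0.32. A separate list of 6 excitatory neuron markers had 4 with a positive log2FC and a median of 0.07, with sums of 8.82 ± 2.72 CPM in burn and 8.08 ± 2.36 CPM in sham mice, and 4 of 6 oligodendrocyte markers were positive with a median of 0.08. Of 7 inhibitory neuron markers tested, 6 were negative with a median of −0.48, at mean sums of 0.871 CPM in burn and 1.02 CPM in sham mice. Of the 6 mural markers 3 were negative (median −0.17), as were 3 of 5 oligodendrocyte precursor markers (median −0.11). The sum of the 8 astrocyte markers was 233 ± 46.4 CPM in burn and 260 ± 28.9 CPM in sham mice, and 6 of the 8 had a negative log2FC with a median of −0.36. Border macrophage and monocyte markers went the other way, with sums of 309 ± 70.4 CPM in burn (202.8 to 402) and 214 ± 72.1 CPM in sham mice (77.3 to 306), a positive log2FC in 6 of 6 and a median of 0.38. The 8 microglia markers had a median log2FC of 0.0017. On the log2(CPM + 1) scale Shank3 and the endothelial sum had a Pearson's r of 0.762 and a Spearman's rho of 0.650 over the 15 microglia libraries, given without a test because the difference that chose the set enters them. Pearson's r was 0.556 without the 2 libraries farthest from the median sum, 0.672 within the 8 burn mice, 0.695 within the 7 sham mice and 0.810 within the 10 mice of batch 3. With the endothelial sum added as a term, also chosen after seeing the data, the fitted log2FC of Shank3 was −1.33 ± 0.32.

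**Figure D4:**
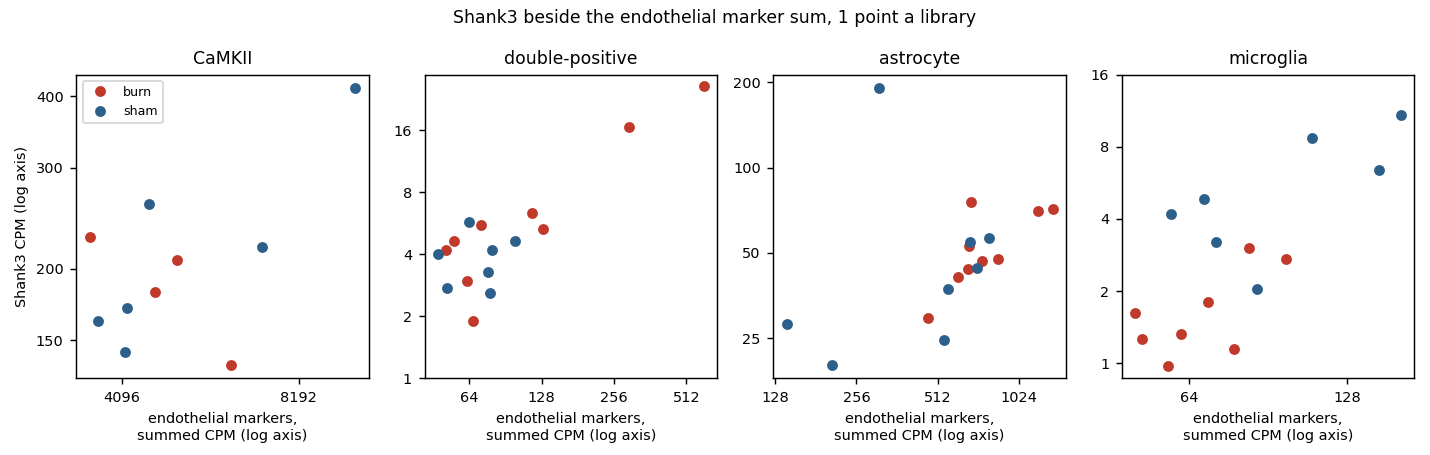
Shank3 CPM against the summed CPM of 6 endothelial markers, both on log axes, with 1 point a library and burn in red and sham in blue. In microglia the 3 sham libraries with the highest sums hold the 3 highest Shank3 levels, and in double-positive libraries the 2 highest points are burn libraries at 296 and 606 CPM of the markers.

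The same relation was read in the other populations, with p adjusted over the same 80 relations. In double-positive libraries r was 0.886 (adjusted permutation p = 0.0180, rho 0.588, adjusted permutation p = 0.113), and it was 0.392 without the 2 farthest libraries and 0.0419 in the 10 mice of batch 3, so it rests on mice 2 and 10. In CaMKII positive libraries r was 0.580 (adjusted permutation p = 0.239, rho 0.261, adjusted permutation p = 0.683), and it was −0.285 without the 2 farthest libraries and 0.777 in the 8 mice of batch 3. In astrocytes r was 0.351 (adjusted permutation p = 0.391, rho 0.618, adjusted permutation p = 0.0852), and it was −0.0774 without the 2 farthest and 0.898 in the 10 mice of batch 3. Of the other 9 genes, Dlg4 in CaMKII positive libraries was the only one with an adjusted p under the threshold, ran against the endothelial sum at an r of −0.870 (adjusted permutation p = 0.0288) and a rho of −0.745 (adjusted permutation p = 0.113), and had an r of −0.606 without mice 17 and 19 and of −0.853 in the 8 mice of batch 3.

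The partners were read in the same contrasts. None of the 34 partners or 4 relatives was called in CaMKII positive, double-positive or astrocyte libraries by edgeR, which called 0 genes there, or by DESeq2. Of the 34 partners, 1 had an unadjusted p under 0.05 in CaMKII positive libraries, 1 in double-positive libraries and 0 in astrocytes, and of the 4 relatives 0 had one in any of these (edgeR). The relative Dlg3, a membrane-associated guanylate kinase like PSD-95, had the second smallest p in CaMKII positive libraries, at 0.33 ± 0.23 (p = 0.173, adjusted p = 1.00). Among the genes with the smallest unadjusted p in the other two populations, Dynll1, a dynein light chain that binds Dlgap proteins, was at −0.48 ± 0.20 in double-positive libraries (p = 0.0276, adjusted p = 0.708, edgeR) and the activity-induced Arc at −0.63 ± 0.32 (p = 0.0628, adjusted p = 0.732). Dlg1 at −0.12 ± 0.08 and Gria2 at 0.22 ± 0.14 led in astrocytes (adjusted p = 0.625 and 0.648). In microglia 29 of the 34 partners had a negative log2FC, with a median of −0.30 against 0.0022 over all genes, again without a test. Camk2a was at −0.47 ± 0.15 there, with 13.4 ± 1.92 CPM in burn and 18.3 ± 4.56 CPM in sham mice (SD, n = 8 and 7), and Dynll1 was at −0.44 ± 0.15.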

How the data were processed

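The authors trimmed reads with fastp, aligned them with STAR to GRCm39, used GenomicAlignments to count reads per Ensembl gene, and deposited those counts, 1 table for each sorted population; transformed tables of the same libraries were not used. The deposited counts were tested as they stand with edgeR 4.0.16 in R 4.3.3 (glmQLFit, TMM, genes with at least 10 counts in total, Benjamini-Hochberg). Burn was compared with sham within each population with batch as a term, and populations were compared in a joint fit of the 58 libraries with population, population by treatment and batch. The standard error of a log2FC was taken as its size over the root of the F statistic. The 5 libraries left out were the 4 of mouse 3 and the double-positive library of mouse 8, which held 331215 counts; the study removed the same libraries. 0 columns were left unused. Of the 56980 genes, 52073 had a symbol in the reference table. No 2 libraries were alike (lowest chi-square per degree of freedom 13.5 over 1653 pairs).

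Libraries with the same number come from the same mouse, so they are paired: deviations from group and batch means had a median r of 0.0393 in 72 pairs of the same mouse (−0.187 to 0.423) and of −0.00490 in 1132 pairs of different mice. The fit with mouse as a replicate block was an alternative, beside DESeq2 1.42.0, other scalings and filters, no batch term, batch 3 alone, all deposited libraries, no minimum fold and each mouse left out. Exon lengths and overlaps are from GENCODE M21, which is of GRCm38, and promoter windows from RefSeq. Permutation tests of marker relations were two-sided with 100000 resamples. The named genes are all 10 members, partners or relatives called in a burn comparison or otherwise the 2 with the smallest p, the 2 called with the largest and the 2 with the smallest log2FC in 4 population pairs, the 3 genes closest by r, of which the text gives some, and 8 marker genes; 2 genes that this rule names are not reported here. Members and lists were chosen with earlier results of these data known. Within a population each library is a separate animal, so p-values of burn against sham measure the spread between mice. The population pairs were fitted with no term for mouse, so libraries of the same mouse entered as separate units. Those p-values measure the spread between libraries and leave the pairing out, except in the fit with a replicate block.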

Additional observations from a re-analysis of the deposited data

Results flagged for a closer look

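Of 80 groups of 4 to 9 libraries, 21 had a library set apart from its group in the level of a scaffold gene by a gap larger than Dixon's 95% value; chance flags about 1 group in 20, and levels of different genes in 1 library are not independent. In 9 groups that library was the astrocyte library of the sham mouse 13, at 610 CPM of Shank1 (next 68.1), 141 of Shank2 (41.1), 190 of Shank3 (56.6), 53.4 of Homer1 (41.9), 79.2 of Homer2 (24.6), 337 of Dlg4 (149), 290 of Dlgap1 (213), 188 of Dlgap3 (16.7) and 136 of Dlgap4 (78.7). It also had the highest sums among astrocyte libraries of oligodendrocyte markers, 605 CPM against 24.4 to 203 CPM in the others, and of neuron markers, 384 CPM against 14.7 to 301 CPM. The part of these cells in the values was not tested. Among burn astrocytes mouse 10 stood apart at 126 CPM of Shank1, 216 of Dlg4 and 36.3 of Dlgap3, and in double-positive burn libraries the same mouse stood apart at 28.1 CPM of Shank1, 7.15 of Homer2 and 8.32 of Dlgap3. In CaMKII positive sham libraries mouse 8 stood apart at 191 CPM of Shank1, 145 of Shank2, 53.3 of Homer2 and 52.6 of Dlgap3. The same library had the highest sums of oligodendrocyte markers, 3707 CPM against 222 to 1235 CPM in the other CaMKII positive libraries, and of neuron markers, 206 CPM against 39.4 to 203 CPM, and their part in these values was not tested. In microglia sham libraries mouse 13 was low in Homer1 at 19.9 CPM (next 28.5) and mouse 16 high in Homer2 at 4.68 CPM (next 2.18). The 50 values of the libraries left out held none above every kept sham library of the same population.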

How the results depend on the processing

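No called difference of a scaffold gene changed sign under any alternative run. Values that were not called changed sign in 87 of 940 refits of burn against sham and in 38 of 1560 of the population pairs, and all 40 mean levels moved by less than 1 SD with TMM-scaled CPM. In the fit with a replicate block the same number of scaffold genes was called in each of the 6 pairs, 7 in astrocytes against microglia among them, whereas genes called between double-positive and microglia libraries fell from 2262 to 1429, and to 1005 in batch 3 alone. Between CaMKII positive and astrocyte libraries 1 scaffold gene was called, and 3 were with no minimum fold (9995 genes in all, against 5385), in batch 3 alone, with only these populations in the fit and without the astrocyte library of mouse 13 and the double-positive library of mouse 10, a setting chosen after seeing the data; leaving out each mouse gave 1 to 3, the 3 without mouse 13. Between double-positive libraries and microglia the count rose from 1 to 2 with no minimum fold, with only these populations and without those 2 libraries, and leaving out each mouse gave 1 to 2. In burn against sham, where edgeR called 0 genes, DESeq2 called 3 in CaMKII positive, 2 in double-positive, 27 in astrocyte and 80 in microglia libraries, no filter on low counts gave 14 in double-positive and 4 in astrocyte libraries, all deposited libraries gave 136 in double-positive, and the endothelial term gave 1 in CaMKII positive libraries, none of them a scaffold gene in those 3 populations. Shank3 in microglia was −1.33 with the endothelial term and otherwise between −1.94 and −1.59, in refits of the libraries that chose the set. With library size alone as the scaling, the median log2FC of all genes moved by 0.17 between CaMKII positive and astrocyte libraries, by 0.12 between CaMKII positive and double-positive libraries and by 0.11 between CaMKII positive libraries and microglia. The cause of these changes was not tested. Depth limits Shank2, Shank3, Homer2, Dlgap1 and Dlgap3 in microglia, which rest on as few as 0 to 21 counts in a library, and Homer2, Shank2 and Dlgap3 in double-positive libraries, with as few as 3, 7 and 13 counts.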
